A study of Mus musculus with 6 samples.

Results

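Gbp2, Ifitm2 and Stat2 are interferon-inducible genes that were examined here in cultured mouse airway smooth muscle cells. They were taken by symbol from the array's platform annotation, which gave 1 probe each, so 3 of 8734 probes and 3 of 5755 annotated genes. They were chosen from measured values: earlier results had placed all 3 among the genes with a higher ratio in the transgenic cells, so their transgenic ratios are given below as a description without a test. Their differences between sets of arrays and between dyes were not the basis of that choice and were tested. The choice came from the same arrays, so these tests are not fully independent of it.

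Each of the 6 samples was 1 two-colour array that set RNA of airway smooth muscle cells from transgenic mice overexpressing the beta2-adrenergic receptor (2AR-OE, called transgenic here) against RNA of cells from nontransgenic (NTG) mice. Both kinds of cells were grown from pieces of trachea in medium with 20% fetal calf serum and harvested at passage 8 to 10, and no drug treatment is named in the labels. The design asks what lasting activity of this receptor does to gene expression. Cy5 marked the transgenic RNA of arrays 2A, 2B, 1A and 1B, whereas on 2C and 1C it was marked with Cy3. What the numbers and letters in the array names mean is not stated in the labels; here a set is the 3 arrays with the same number. Age, strain and the promoter that drives the transgene are not given in the labels. The receptor gene itself was not analysed here, so overexpression was not checked. No label states that the arrays rest on separate cultures or animals. Each p-value therefore measures how far the arrays spread, and that spread may be technical.

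All values are log2 ratios, likely transgenic over nontransgenic, because transgenic RNA was in channel 1 of 4 of the 6 arrays. The titles of those 4 name nontransgenic RNA first, and if the ratio ran the other way every sign would turn. The columns of 2C and 1C were used as deposited, on the assumption that they had already been turned to the direction of the other 4. No label says so, and without that step the values called transgenic would hold a dye difference. Over 8430 probes the arrays with transgenic RNA in Cy5 correlated with r of 0.362 to 0.718 among themselves, 2C and 1C with r = 0.290, and arrays of opposite orientation with r of 0.0128 to 0.169. Between 8495 and 8555 probes had a value on each array. Array 1C stood apart, with 63 probes at the lowest value of the table, against 0 to 10 on the others, and an interquartile range of 0.751, against 0.378 for array 2C. Each result that turns on array 1C or 2C is given with that array's own value. The table holds ratios and no levels, so whether these cells contain smooth muscle transcripts cannot be read from it; the labels report staining for smooth muscle actin in over 90% of such cells.

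Interferons bind surface receptors whose JAK kinases phosphorylate STAT proteins. STAT2 works with IRF9 in the complex ISGF3, which binds the interferon-stimulated response element (ISRE), while interferon gamma acts through the gamma-activated site (GAS). Stat2 thus encodes a transducer of the pathway and is itself interferon-inducible. Gbp2 encodes a guanylate-binding protein, a large GTPase that gathers on vacuoles and membranes of intracellular pathogens. Ifitm2 encodes a small membrane protein of a family known for hindering the entry of enveloped viruses. The beta2-adrenergic receptor acts through the stimulatory G protein and cyclic AMP, which can reach genes through CREB at the cyclic AMP response element (CRE).

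The upstream sequences of the 3 genes are shown because each held 1 match to the ISRE core. The sequences were not used to choose the genes. The genes were grouped as interferon-inducible, however, so the match is not independent of the choice. The windows are the 250 bases before the annotated transcription start in RefSeq, build GRCm38.p6, upstream of the first exon, printed 5′ to 3′ on the strand of the gene. They lie at chr10:128270248-128270497 (plus strand) for Stat2, chr3:142620413-142620662 (plus strand) for Gbp2 and chr7:140955962-140956211 (minus strand) for Ifitm2. Capitals mark the match to GAAANNGAAA, which in Stat2 and Gbp2 reads as its reverse complement.
Stat2: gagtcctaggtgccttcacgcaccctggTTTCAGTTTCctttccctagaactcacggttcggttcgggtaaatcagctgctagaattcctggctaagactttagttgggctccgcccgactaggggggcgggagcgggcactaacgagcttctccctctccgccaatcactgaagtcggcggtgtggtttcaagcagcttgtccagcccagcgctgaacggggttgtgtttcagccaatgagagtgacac
Gbp2: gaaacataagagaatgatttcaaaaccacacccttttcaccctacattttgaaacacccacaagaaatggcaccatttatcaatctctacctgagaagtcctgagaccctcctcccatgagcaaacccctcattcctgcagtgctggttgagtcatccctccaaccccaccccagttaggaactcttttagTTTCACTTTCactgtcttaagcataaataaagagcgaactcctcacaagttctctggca
Ifitm2: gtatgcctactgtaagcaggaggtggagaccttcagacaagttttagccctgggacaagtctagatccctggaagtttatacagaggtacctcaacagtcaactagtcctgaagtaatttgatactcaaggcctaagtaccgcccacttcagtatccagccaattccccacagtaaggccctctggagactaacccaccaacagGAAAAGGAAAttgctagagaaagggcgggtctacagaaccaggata
Between the match and the start lay 49 bases in Gbp2, 36 bases in Ifitm2 and 212 bases in Stat2. Searched on both strands, GAAANNGAAA occurred in 978 of 32851 promoter windows of this length (2.98%), in 158 of 4561 windows of measured genes (3.5%), and in 15 of the 58 other measured interferon list genes with a window (25.9%). The GAS letters TTCNNNGAA and the CRE letters TGACGTCA were absent from all 3 windows, and occurred in 7.02% and 1.55% of all windows and in 7.0% and 3.0% of those of measured genes. A match of letters is a description of the sequence and not a bound site. Among the other list genes, the 15 with the ISRE core had a median transgenic log2 ratio of 0.047 and the 43 without it a median of 0.025; list genes with no window, Gvin1 among them, are in neither group.

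Stat2 had log2 ratios of 0.29, 0.39 and 0.21 on arrays 2A, 2B and 2C and of 0.70, 0.45 and 0.54 on arrays 1A, 1B and 1C. All 6 values were above 0, and the lowest was on array 2C. They fell between the 76.3rd and the 93.9th percentile of all probes on the same array. The fitted log2 ratio, with dye as a further term, was 0.42 ± 0.09 (SE, n = 6 arrays), a 1.33-fold higher signal in transgenic cells, and 683 of 6807 tested rows had a higher one.

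Gbp2 had log2 ratios of 0.96, 0.78 and 0.67 on arrays 2A, 2B and 2C and of 1.07, 0.50 and 0.60 on arrays 1A, 1B and 1C. Its highest and its lowest value both came from set 1. Its position among all probes ran from the 81.0th percentile on array 1C, the array with the widest spread of ratios, to the 98.3rd on array 2A. The fitted log2 ratio was 0.73 ± 0.09 (SE, n = 6), or 1.66-fold higher in transgenic cells.

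Ifitm2 had log2 ratios of 0.61, 0.62 and 0.44 on arrays 2A, 2B and 2C and of 1.53, 1.36 and 0.92 on arrays 1A, 1B and 1C. The sets did not overlap: the highest set 2 value lay below the lowest set 1 value. The fitted log2 ratio was 0.86 ± 0.17 (SE, n = 6), or 1.81-fold higher in transgenic cells, the largest of the 3 and the one with the largest error. The 95% intervals of the fits were 0.44 to 1.27 for Ifitm2, 0.50 to 0.96 for Gbp2 and 0.20 to 0.63 for Stat2, and each interval is that of 1 gene alone. Array by array, Stat2 had the lowest ratio of the 3 on 6 of 6 arrays, while Gbp2 was above Ifitm2 on the 3 arrays of set 2 and below it on the 3 arrays of set 1. All 3 were among the 484 rows called at limma's adjusted p under 0.05, 7.11% of those tested, and among the 274 called higher (4.03%); since they were chosen for that, nothing is read from it. With the set as a random block, 197 rows were called, among them Gbp2 but neither Ifitm2 nor Stat2. In a pool of cells, more cells of a type and more RNA per cell cannot be told apart.

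**Figure D1:**
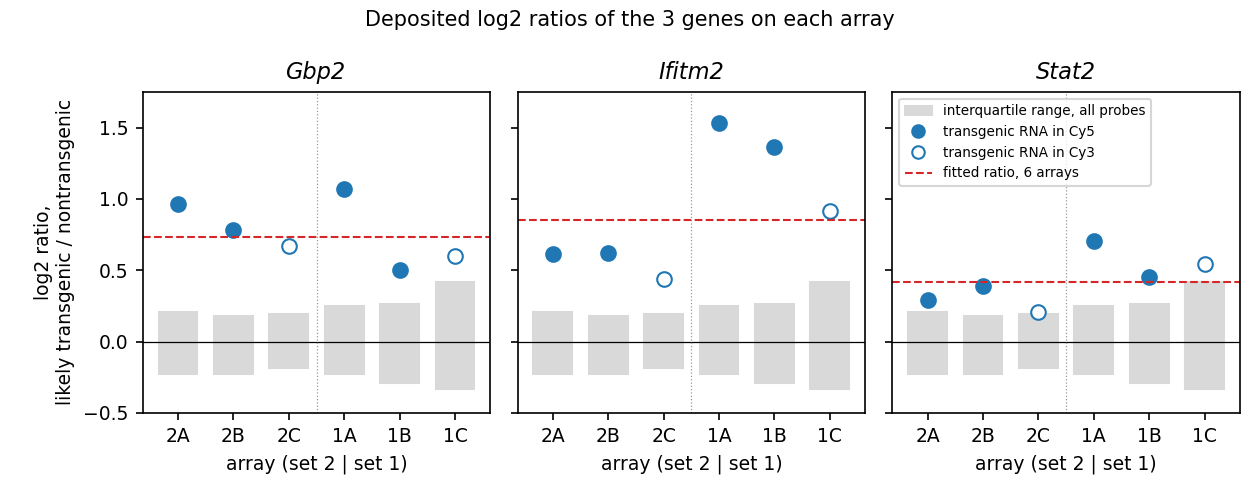
Log2 ratio (likely transgenic over nontransgenic) of Gbp2, Ifitm2 and Stat2 on each of the 6 arrays, set 2 left of set 1. Grey bars are the interquartile range of all probes of the array, filled points have transgenic RNA in Cy5 and open points in Cy3, and the dashed line is the fitted ratio. All values lie above 0, and the set 1 values of Ifitm2 (0.92 to 1.53) lie above its set 2 values (0.44 to 0.62).

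The transgenic ratio of Ifitm2 had lower values in set 2 than in set 1 on every array, while those of Gbp2 overlapped between the sets. Ifitm2 averaged 0.56 ± 0.10 in set 2 and 1.27 ± 0.32 in set 1 (SD, n = 3 arrays each). The difference of set 2 minus set 1 was -0.71 ± 0.12 on the log2 scale (SE), a ratio of 0.611 between the sets. It did not pass the threshold in limma with Benjamini-Hochberg adjustment over all rows (adjusted p = 0.0728, unadjusted p = 0.00228). Over 16 other settings of the fit the adjusted p ran from 0.0407, with array weights, to 0.739, and 1 of the 16 passed. Scaling the arrays to one spread brought the difference of Ifitm2 to -0.45, and turning the columns of 2C and 1C brought it to -0.39; the interquartile range of all probes was 0.378 to 0.432 on the arrays of set 2 and 0.477 to 0.751 on those of set 1. No row passed this test (0 of 6807, 0%), although 1616 rows had an unadjusted p under 0.05.

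Stat2 averaged 0.30 ± 0.09 in set 2 and 0.57 ± 0.13 in set 1 (SD, n = 3 each). Its difference of -0.27 ± 0.11 (SE) did not pass either (limma, adjusted p = 0.220), and it was -0.14 with the arrays scaled to one spread and -0.05 with those columns turned. Its set 2 values all lay below its set 1 values, as did those of Ifitm2, and 931 of 6756 rows with 6 values (13.8%) did the same. Gbp2 averaged 0.81 ± 0.15 in set 2 and 0.72 ± 0.30 in set 1, with overlapping values and a difference of 0.08 ± 0.18 (SE; limma, adjusted p = 0.807). That of Gbp2 had no steady sign: it was 0.31 with the arrays scaled, 0.24 without array 1A and -0.08 without array 1B. Ifitm2 and Stat2 thus had lower values in set 2 on every array, and Gbp2 did not.

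The set differences of Ifitm2 and Stat2 were below 0 in both dye orientations. For Ifitm2 it was -0.83 with transgenic RNA in Cy5 and -0.48 with it in Cy3. For Stat2 it was -0.24 and -0.34, in the same order, and for Gbp2 0.09 and 0.07. A dye bias that is the same in both sets cancels in these differences by construction, and the sign of the Cy3 values rests on those columns as deposited. The meaning of the set number is not given, so what differed between the sets was not tested.

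None of the 3 genes had a dye coefficient that passed the test. The mean ratio was 1.03 with transgenic RNA in Cy5 and 0.68 with it in Cy3 for Ifitm2, 0.83 and 0.64 for Gbp2, and 0.46 and 0.37 for Stat2. The dye coefficients were 0.18 ± 0.17 for Ifitm2, 0.10 ± 0.09 for Gbp2 and 0.04 ± 0.09 for Stat2 (SE; limma, adjusted p of 0.582, 0.585 and 0.804). Across all rows 1 of 6807 (0.0147%) passed, and 1242 had an unadjusted p under 0.05. If the 2 swapped columns were in fact not turned, these dye coefficients would be the transgenic values.

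The closest relative of Ifitm2 on the array, Ifitm3, showed the same layout of values without passing the transgenic test. Ifitm3, which restricts influenza virus entry, had log2 ratios of 0.31, 0.44 and 0.23 on arrays 2A, 2B and 2C and of 1.37, 1.13 and 0.68 on arrays 1A, 1B and 1C. Its fitted ratio was 0.64 ± 0.18 (SE; limma, adjusted p = 0.0888), and its set difference was -0.74 ± 0.14 (SE; adjusted p = 0.0777). Its 6 values differed from those of Ifitm2 by a root mean square of 0.224, against 0.457 between Ifitm2 and Gbp2, 0.558 between Ifitm2 and Stat2 and 0.400 between Gbp2 and Stat2. The sequences of Ifitm2 and Ifitm3 are much alike in the mouse, and the probe sequences were not used here, so RNA of one may have bound the probe of the other; this was not tested. The other measured members of the family had 0.25 ± 0.09 for Ifitm5, 0.14 ± 0.10 for Ifitm7 and -0.14 ± 0.16 for Ifitm10 (SE; limma, adjusted p of 0.140, 0.400 and 0.584). Ifitm1 and Ifitm6 were not analysed here.

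Among the interferon-inducible GTPases, Gvin1 rose in the transgenic cells and the other guanylate-binding proteins did not pass the test. Gvin1 encodes a very large interferon-inducible GTPase. Its first probe (621464) had 0.98, 0.95 and 1.36 on arrays 2A, 2B and 2C and 0.75, 0.93 and 0.73 on arrays 1A, 1B and 1C. Its second (653161) had 1.22, 1.14 and 1.55 in set 2 and 0.58, 0.40 and 0.87 in set 1. Both probes were above 0 on 6 of 6 arrays, and the averaged values were higher in set 2 than in set 1, the opposite of Ifitm2. The fitted ratio of the mean of both probes was 1.00 ± 0.12 (SE; limma, adjusted p = 0.0106), and the set difference was 0.49 ± 0.09 (SE; adjusted p = 0.0784).

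The measured relatives of Gbp2 had fitted log2 ratios of 0.61 ± 0.24 for Gbp7, 0.48 ± 0.27 for Gbp9, 0.22 ± 0.09 for Gbp6 and -0.49 ± 0.49 for Gbp3 (SE; limma, adjusted p of 0.172, 0.293, 0.171 and 0.535). Probes of these genes disagreed. For Gbp7 and Gbp9 the higher probe reached 4.18 and 4.83 on array 1C, and the fits of their lower probes were 0.13 and -0.08. The 4 probes of Gbp6 ran from -0.25 to 0.86, and the highest (619723) passed when probes were tested singly (limma, adjusted p = 0.0411). That probe had 1.95 on array 1C, against 0.15 to 0.71 on the others. For Gbp3 1 probe had a value on array 1A only, at the floor of the table, and the fit of the other was -0.08 ± 0.06. Guanylate-binding protein genes are similar in sequence, and whether their probes separate them was not tested.

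**Figure D2:**
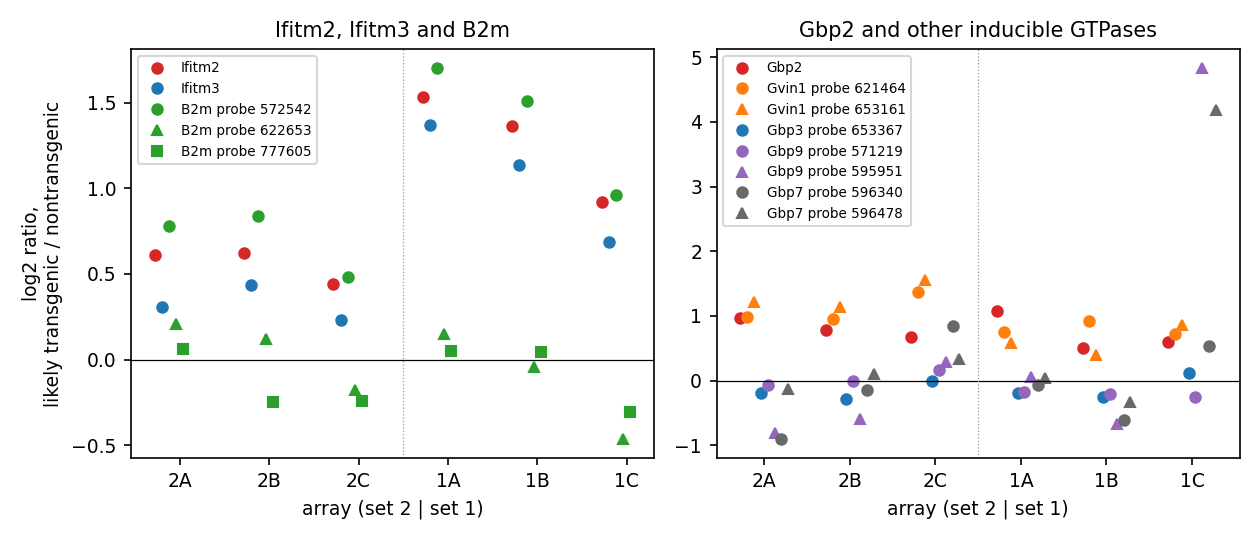
Log2 ratio on each array, set 2 left of set 1, for Ifitm2, Ifitm3 and the 3 B2m probes (left) and for Gbp2, both Gvin1 probes and probes of Gbp3, Gbp9 and Gbp7 (right); points of 1 array are offset sideways so that they can be seen. Ifitm3 and 1 B2m probe have higher values in set 1, as Ifitm2 does, while Gvin1 is higher in set 2, and single probes of Gbp9 and Gbp7 reach 4.83 and 4.18 on array 1C.

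Of the partners of Stat2, none that was measured passed the test. Irf9, the DNA-binding partner of STAT2, had a fitted log2 ratio of -0.03 ± 0.07 (SE; limma, adjusted p = 0.831). The receptor-associated kinase Jak1 had 0.17 ± 0.15 and Jak2 had 0.17 ± 0.09 (adjusted p of 0.500 and 0.252). The values of Jak1 were -0.07, 0.03 and -0.30 on arrays 2A, 2B and 2C and 0.68, 0.60 and 0.34 on arrays 1A, 1B and 1C, again without overlap of the sets, and its set difference of -0.66 ± 0.08 (SE) had an adjusted p of 0.0724. Ifngr1, a chain of the interferon gamma receptor, had 0.28 ± 0.10 (adjusted p = 0.139), and Irf1, an interferon-inducible transcription factor, had -0.16 ± 0.16 (adjusted p = 0.525). Irf7, Tyk2, Ifnar1, Ifnar2, Ifngr2 and Isg15 were not analysed here.

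Beyond Gbp2, Ifitm2 and Stat2, 75 of 202 genes in lists of the interferon pathway were measured; 2 rose in the transgenic cells and 0 fell. The 2 were Gvin1 and Myd88, the adaptor of Toll-like receptors. Myd88 had log2 ratios of 0.38, 0.35 and 0.31 on arrays 2A, 2B and 2C and of 0.56, 0.52 and 0.18 on arrays 1A, 1B and 1C, with a fit of 0.35 ± 0.07 (SE; limma, adjusted p = 0.0344, against 0.107 with the set as a random block). Of the 75, 45 had a ratio above 0 and their median was 0.048, against a median of 0.002 and 50.3% above 0 over all 6807 rows. The share of the 75 that was called can be read beside the 7.11% of all rows called, with the reservation that called genes had been taken out of these lists as members. With the 3 genes put back, 5 of 78 were called and the median was 0.058.

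By role, neither measured gene of the ligand and receptor list was called, with Ifnlr1 at -0.01 and Ifngr1 at 0.28. None of the 11 other JAK-STAT genes was called, and their fits ran from -0.19 for Stat5b to 0.95 for Usp18, the enzyme that removes ISG15 and dampens the type I receptor. The Usp18 value had an error of 0.41 and an adjusted p of 0.198, and it rested on 2.71 on array 1C, against -0.52 to 1.25 on the others. The list of interferon regulatory factors also held Irf2bp1 and Irf2bp2, which encode IRF2-binding proteins and not factors of the family, each at -0.07. Of its 7 measured genes 1 had a ratio above 0, with a median of -0.07 and a range from -0.38 for Irf2 to 0.15 for Irf5. Among 7 sensors and their adaptors and kinases, Myd88 was the 1 called, and the range was from -0.87 for Zbp1 to 0.41 for Sting1. The Zbp1 value had an error of 0.54 and averaged 2 probes that disagreed. Probe 574439 had values on arrays 2A, 2B and 1C only, and the one on 1C lay at the floor of the table. The fit of probe 618199, above 0 on every array, was 0.42 ± 0.13 (SE, limma, adjusted p = 0.106). The 10 GTPases other than Gbp2 had a median of 0.14, with Gvin1 called.

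Of 21 other effectors none was called, with a median of 0.01 and a range from -0.62 for Ms4a4c to 0.61 for Lgals9. Of 13 genes of antigen presentation none was called either, though 11 had a ratio above 0, between -0.20 for H2-Oa and 0.47 for H2-K1 at the ends of the list. H2-K1 had 1.19 on array 1C, against 0.004 to 0.53 on the others. Cxcl9, the measured chemokine, had 0.25. B2m, the light chain of class I molecules, was singled out after its values were seen: 1 of its 3 probes (572542) had 0.78, 0.84 and 0.48 in set 2 and 1.70, 1.51 and 0.96 in set 1, the layout of Ifitm2, while the fits of the other 2 were -0.11 and -0.15. Tested singly, that probe passed, with a fit of 0.96 ± 0.16 (SE; limma, adjusted p = 0.0271). Which B2m probe reports the gene was not tested, and their mean did not pass (0.24 ± 0.08 SE; limma, adjusted p = 0.120).

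**Figure D3:**
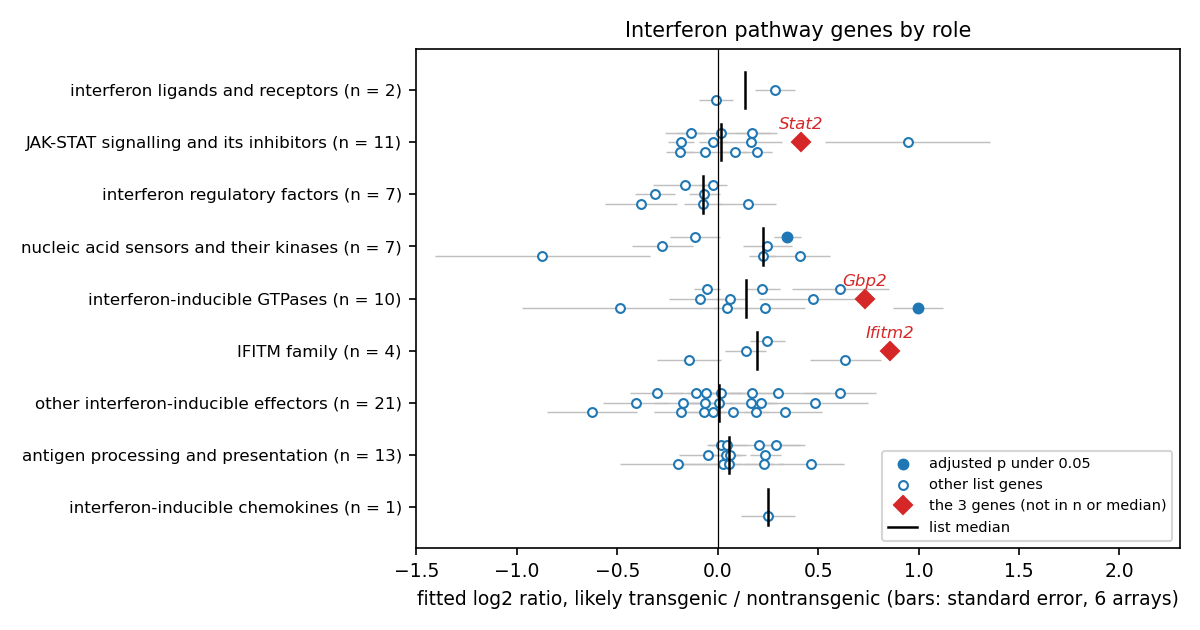
Fitted log2 ratio (likely transgenic over nontransgenic) of each measured interferon gene in lists by role, with standard errors over 6 arrays as bars, filled points for adjusted p under 0.05, list medians as vertical lines and Gbp2, Ifitm2 and Stat2 as diamonds. List medians lie between -0.07 and 0.25, and 2 of the 75 list genes, Gvin1 at 1.00 and Myd88 at 0.35, are filled.

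The 9 genes whose values lay closest to those of Gbp2, Ifitm2 and Stat2 were not in the interferon lists. Closeness was the root mean square difference over the 6 arrays, among 5613 genes with 1 symbol and all values. The lists held 75 other measured genes, so nearly all genes compared lay outside them. Nothing is read from the absence of list genes among the 9. Closest to Ifitm2 were Ctsl, a lysosomal protease, at 0.0868, Rasa3, a GTPase-activating protein, at 0.100, and Cpe, a carboxypeptidase of the secretory pathway, at 0.111, against a median of 1.05 over all genes. Ctsl for example had 0.64, 0.75 and 0.43 on arrays 2A, 2B and 2C and 1.47, 1.40 and 1.07 on arrays 1A, 1B and 1C. Closest to Gbp2 were Idi1, an enzyme of isoprenoid synthesis, at 0.137, Selenop, a secreted selenium carrier, at 0.166, and Zfp277 at 0.168, against a median of 0.861. Closest to Stat2 were Sash1 at 0.0750, Hvcn1, a proton channel, at 0.0887, and Pipox at 0.0942, against a median of 0.567. None of the 9 was named for more than 1 of the 3, and nothing about shared control follows from it.

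Genes next to the 3 on the chromosome were looked at after the values were known. Of the 3 protein-coding genes on either side in RefSeq order, 4 of 6 were measured around Gbp2, 2 of 6 around Ifitm2 and 4 of 6 around Stat2. Near Stat2, Cnpy2, which encodes a protein of the endoplasmic reticulum, rose with a log2 ratio of 0.64 ± 0.13 (SE; limma, adjusted p = 0.0381), and Pan2, a subunit of a poly(A) nuclease, had 0.34 ± 0.08 (adjusted p = 0.0563). Timeless and Apon had -0.07 and 0.09. Near Gbp2, Kyat3 had 0.14 and Pkn2 had -0.03, beside Gbp7 and Gbp3 given above. Both measured neighbours of Ifitm2, Ifitm5 and Ifitm3, are of its own family.

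Markers of other cell types are given because leukocytes and fibroblasts express interferon-inducible genes. The counts below can be read beside the 7.11% of all rows called and the 4.03% called higher. Of 10 measured macrophage and leukocyte markers 0 were called in limma, with a median of 0.003 and a range from -0.48 for Cd53 to 0.50 for Tyrobp. Of 7 fibroblast markers 2 were called higher, Thy1 at 2.73 and Mfap5 at 0.81, with a list median of 0.70 and a lowest value of -1.21 for Col1a1. Col1a1 had -3.28 on array 1C, against -1.01 to 0.24 on the others. Of 7 endothelial markers 0 were called, with a median of -0.37 and a range from -0.84 for Cdh5 to 0.42 for Esam. Of 4 epithelial markers Cdh1 was called higher at 0.32, with a median of 0.13 and a lowest value of 0.06 for Krt19. Of 4 smooth muscle markers Cnn1 was called higher at 0.59, with a median of -0.09 and a lowest value of -0.16 for Tpm1. Their part in the values of Gbp2, Ifitm2 and Stat2 was not tested.

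**Figure D4:**
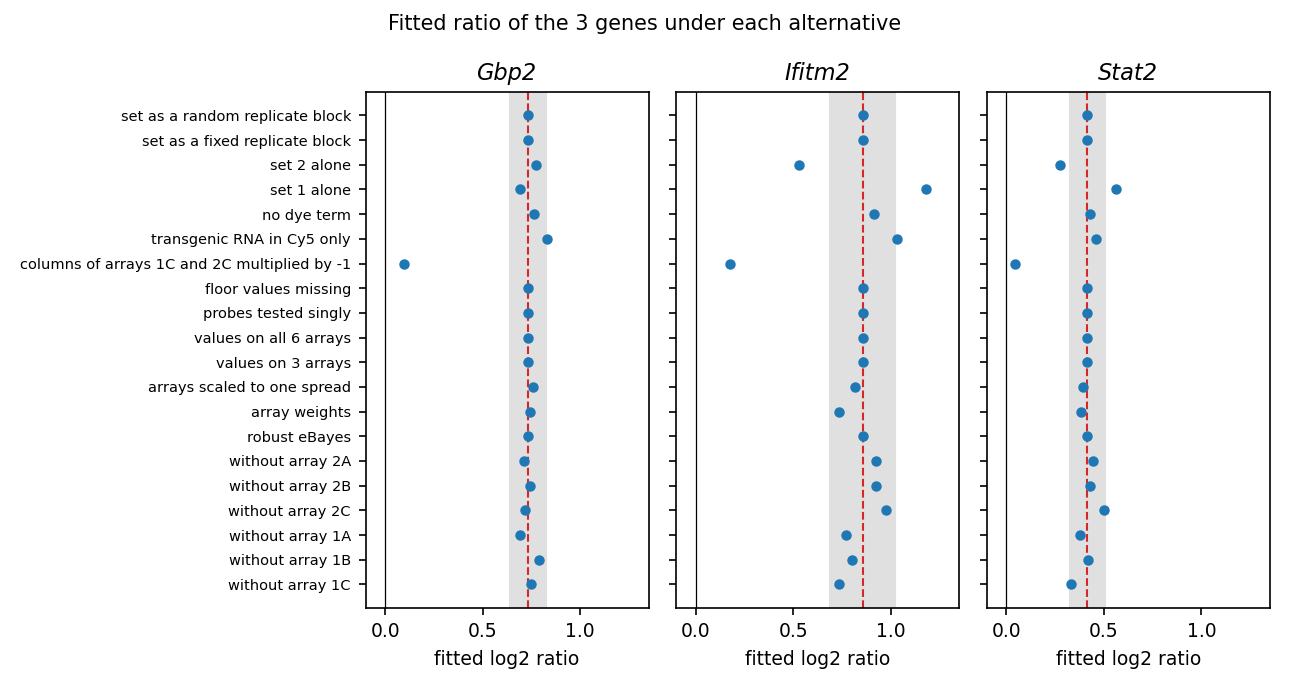
Fitted log2 ratio (likely transgenic over nontransgenic) of Gbp2, Ifitm2 and Stat2 under each alternative setting, 1 row per setting, with the fit used here as a dashed line and its standard error as a grey band. The values stay between 0.27 and 1.18, except where the columns of arrays 1C and 2C are multiplied by -1, where they are 0.10 for Gbp2, 0.18 for Ifitm2 and 0.04 for Stat2.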

How the data were processed

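Each of 6 two-colour arrays compared RNA of transgenic and nontransgenic airway smooth muscle cells. The deposited table gives a log2 ratio for each probe on each array. Complementary DNA of both RNAs, one in Cy3 and the other in Cy5, competed on printed slides, per the labels' protocols. Not given in the sources used here are the scanner, background correction, normalization and direction of the ratio. Array medians lay between -0.0012 and 0.0007, so the deposited columns were already centred. Intensities are unknown, and the number of arrays limits the precision.

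Of 8734 probes, the platform annotation gave 7540 1 symbol, 14 several and 1180 none; 7493 matched GRCm38.p6 by Entrez ID. Probes of 1 symbol were averaged. Rows needed values on 4 or more arrays that covered both orientations (6807 did, of which 5644 have 1 symbol) and were fitted in limma (3.58.1, R 4.3.3; lmFit, eBayes) with transgenic and dye coefficients; a further fit added set 2 minus set 1. Benjamini-Hochberg adjusted p under 0.05 was a call. The fit was tested on simulated data. Python 3.11.15 with pandas 2.3.3, numpy 2.4.6 and matplotlib 3.10.9 did the rest. Alternatives varied the set block, dye term, orientation, sign of the swapped columns, floor, probe averaging, filter, scale, weights, variance and arrays.

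The members and gene lists were chosen with earlier results of these data known. Genes named were the members, called list genes, STAT partners, IFITM and Gbp relatives, the ends of each list and each member's 3 nearest genes; B2m and the chromosomal neighbours were added after values were seen. Markers are described as lists, with called genes and the ends named.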

Additional observations from a re-analysis of the deposited data

Results flagged for a closer look

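Among the 4 arrays whose Cy5 channel held transgenic RNA, 3 named genes had 1 array far from the others: of 39 such groups tested, about 1 in 20 is set apart by chance. Gbp3 was at -3.4175 on array 1A, against -0.18, -0.28 and -0.26 on arrays 2A, 2B and 1B, and 1 of its 2 probes lay at the floor there. H2-Oa was at -1.5340 on array 1B, against 0.34, 0.07 and 0.34 on arrays 2A, 2B and 1A. Selenop, one of the genes closest to Gbp2, was at 1.1046 on array 1A, against 0.82, 0.76 and 0.77 on arrays 2A, 2B and 1B.

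Irf9, the partner of STAT2, had opposite signs in the sets: 0.14, 0.09 and 0.02 on arrays 2A, 2B and 2C and -0.07, -0.11 and -0.15 on arrays 1A, 1B and 1C. The difference of set 2 minus set 1 was 0.1900 on the log2 scale, and it did not pass the test (limma, adjusted p = 0.233).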

How the results depend on the processing

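The log2 ratios of the 3 genes stayed above 0 under all 20 alternatives each, and 19 of 20 lay within 1 SD of the spread between arrays. The exception multiplied the columns of arrays 1C and 2C by -1, which gave 0.097 for Gbp2, 0.176 for Ifitm2 and 0.043 for Stat2. The count of 19 cannot show stability. With 1 probe per gene, a value on every array and none at the floor, several alternatives could not move the ratio. The set blocks and the floor, probe, filter and variance settings all returned 0.732 for Gbp2, 0.855 for Ifitm2 and 0.416 for Stat2. The SD also holds the gap between the sets, and at 0.44 for Ifitm2 it takes in either set alone. Set 2 alone gave 0.771 for Gbp2, 0.529 for Ifitm2 and 0.273 for Stat2, and set 1 alone 0.693, 1.182 and 0.56 in that order.

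The number of rows called for the transgene (484) was 197 with a random replicate block for the set, 1168 with it as a fixed replicate block, 1049 with transgenic RNA in Cy5 only, 159 with array weights, 1 with the 2 columns multiplied by -1, and 168 to 1687 without 1 array each. It was highest without array 2C (1687), 168 without 2A, 171 without 2B, 250 without 1A, 204 without 1B and 176 without 1C. The set count (0) was 1 with probes tested singly, 3 with arrays scaled to one spread and 514 with array weights. The dye count (1) was 484 with the columns multiplied by -1, 0 with floor values missing, 0 with probes tested singly, and 1 to 990 without 1 array each, highest without 2C.

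The count of interferon list genes (2) was 1 with the random replicate block, 6 with the fixed one, 5 with Cy5 only (4 higher, 1 lower), 0 with the columns multiplied by -1, 5 with probes singly, 1 with array weights and 1 to 10 without 1 array each; 10 was without 2C and 1 without any other. Their median stayed between 0 and 0.074. Gvin1 kept its call in every fit without 1 array (adjusted p from 0.0101 to 0.0472) and in the random block (0.0241), and had -0.13 with the columns multiplied by -1. Myd88 lost its call in the random block (0.107), with array weights (0.134) and without 2A, 2B, 1A, 1B or 1C (0.0842 to 0.105). Ifitm2 and Stat2 also lost their calls in the random block (limma, adjusted p of 0.0679 and 0.109) and with array weights (0.167 and 0.148). The same held without 2A, 2B, 1A or 1B (0.0688 to 0.116). Gbp2 kept its call in these fits (0.0229 to 0.0481). All 3 lost theirs without array 1C and with the columns multiplied by -1. Gbp2, Ifitm2 and Stat2 were chosen for this contrast on the same arrays. Their adjusted p-values and calls therefore only describe the fits, and nothing is read from them. Array numbers name no shared litter or day, so the blocks are a description. The cause of these shifts was not tested. With 6 arrays and no intensities, the signal behind each ratio is unknown.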
